A study of Mus musculus with 8 samples.

Results

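Organic anion, cation and drug transporters were followed on arrays of mouse kidney after tacrolimus. The genes were taken by name from the array's annotation: the solute carriers Slc22a, Slco and Slc47a and the ATP-binding cassette transporters Abcc. They came to 53 genes with 67 probes, among 34763 genes and unnamed transcripts with 55681 probes on the array. Slc22a had 26 genes, Slco 15, Slc47a 2 and Abcc 10. Total RNA of whole kidneys of CD-1 mice, an outbred stock, was measured on 1-colour Agilent arrays, with 4 arrays of mice given tacrolimus (TAC), 1 mg/kg/day for 28 days, and 4 of mice given physiological serum (CTL). Tacrolimus is a calcineurin inhibitor that prevents transplant rejection and is known for its toxicity to the kidney. The labels give neither the sex nor the age of the mice, and they number the samples without naming animals, so that the spread behind each p-value is that between 8 samples, which may be technical in part.

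The proximal tubule clears drugs, toxins and metabolites in a pair of steps: carriers of the blood-facing membrane take them up and carriers of the urine-facing membrane release them. Slc22a genes encode organic cation, carnitine and organic anion carriers, among them the basolateral uptake carriers Oat1, Oat3 and Oct2, and Slco genes encode carriers of steroid conjugates, thyroid hormones and prostaglandins. Slc47a genes encode the proton-coupled exporters of cations, and Abcc genes the ATP-driven exporters of conjugates (multidrug resistance-associated proteins) and the sulfonylurea receptors of ATP-sensitive potassium channels.

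All 8 arrays lay on 1 slide with the TAC arrays in row 2 and the CTL arrays in row 1, so that row and treatment cannot be told apart. The mean local background was 19.3 to 20.5 intensity units on TAC arrays and 21.8 to 22.1 on CTL arrays, and the 75th percentile of the signal was 674 to 1061 units over all 8. No spot was saturated, and precision is limited by the small number of arrays. A level is the log2 signal relative to the 75th percentile of its array, and a difference is TAC minus CTL. Levels of different probes are not set against each other. In whole-kidney RNA, fewer cells of a type and less RNA per cell cannot be told apart. The labelled tissue was checked with 27 proximal tubule markers, all of them well above background on all 8 arrays, among them the endocytic receptors Lrp2 and Cubn and the phosphate carrier Slc34a1. Their mean relative to CTL was -0.17, -0.06, 0.13 and -0.06 on TAC replicates 1 to 4 and -0.01, -0.00, 0.06 and -0.05 on CTL replicates 1 to 4, so that the groups overlapped.

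Of the 26 Slc22a genes, 10 had their probe on chromosome 19, and 6 of these, Slc22a19 and Slc22a26 to Slc22a30, followed each other without another transporter of these families between 7747661 and 8417872 (mm9). The member with the lowest p of all, Slc22a30, belongs to this run. The promoters of the 4 of them with a match to the motif described next are shown, Slc22a30 beside its neighbours. Those of Slc22a26 and Slc22a27 held no match in this window and are not printed. They are RefSeq sequences of GRCm38.p6 from 250 bases before to 50 after the start, all on the minus strand: Slc22a30 at chr19:8405056-8405355, Slc22a28 at chr19:8131933-8132232, Slc22a29 at chr19:8218851-8219150 and Slc22a19 at chr19:7711261-7711560. Capitals mark matches to the motif of HNF4, a nuclear receptor family known from kidney and liver.
Slc22a30: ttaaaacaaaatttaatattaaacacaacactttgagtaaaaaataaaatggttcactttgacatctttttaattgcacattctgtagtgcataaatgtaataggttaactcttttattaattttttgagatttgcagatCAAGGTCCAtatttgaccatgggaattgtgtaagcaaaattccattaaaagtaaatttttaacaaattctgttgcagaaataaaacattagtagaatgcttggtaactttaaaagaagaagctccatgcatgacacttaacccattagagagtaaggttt
Slc22a28: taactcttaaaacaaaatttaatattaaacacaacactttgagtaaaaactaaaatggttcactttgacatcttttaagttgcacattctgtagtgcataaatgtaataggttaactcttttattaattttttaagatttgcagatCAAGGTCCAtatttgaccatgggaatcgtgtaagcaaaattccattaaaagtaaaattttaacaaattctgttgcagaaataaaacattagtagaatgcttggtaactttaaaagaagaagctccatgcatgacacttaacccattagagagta
Slc22a29: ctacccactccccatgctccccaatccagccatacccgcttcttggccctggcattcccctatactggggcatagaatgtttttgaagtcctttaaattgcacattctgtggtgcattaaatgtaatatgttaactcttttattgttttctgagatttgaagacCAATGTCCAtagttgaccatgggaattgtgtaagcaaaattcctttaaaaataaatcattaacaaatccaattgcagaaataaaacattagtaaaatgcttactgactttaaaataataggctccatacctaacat
Slc22a19: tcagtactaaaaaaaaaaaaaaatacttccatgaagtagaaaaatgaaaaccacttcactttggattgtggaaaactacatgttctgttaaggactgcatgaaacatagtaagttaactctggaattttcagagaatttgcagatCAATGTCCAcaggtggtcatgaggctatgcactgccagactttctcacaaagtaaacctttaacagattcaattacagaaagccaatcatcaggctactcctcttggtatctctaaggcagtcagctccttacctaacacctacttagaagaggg
The motif was spelled CAAAGTCCA and searched on both strands with up to 1 mismatch. The match begins at position -110 in the Slc22a30 promoter, at -104 in Slc22a28, at -86 in Slc22a29 and at -105 in Slc22a19.

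The promoters of Slc22a30 and Slc22a28 are identical at 288 of 294 aligned bases (98.0%), against 77.9% for Slc22a30 and Slc22a29 and 66.4% for Slc22a30 and Slc22a19. For Slc22a30 and the unprinted promoters it was 59.5% with Slc22a26 and 60.0% with Slc22a27. The 6 substitutions, counted from the first printed base of Slc22a30 with its base first, are A44C, T71A, A73G, G128A, T167C and T196A, and none of them lies within the HNF4 match. The promoter table held 42 of the 53 genes with 49 promoters. Of these promoters, 9 (18.4%) had an HNF4 match, against 8.47% of the 32851 promoters of the table. The 9 include all the printed promoters, which belong to neighbouring genes of the same family, those of Slc22a30 and Slc22a28 being near-identical. These matches are not independent of each other, so that the share of 18.4% rests on fewer separate sites than 9. Besides those printed, Abcc4, Slc22a3, Slc22a20 and Slco1a6 were among the genes with a match, while Slc22a5, Slc22a12 and Slc22a18 had none. A further promoter of Abcc4 held no match. A relation between a match and a gene's difference was not tested. A match is a description of the letters and does not show a binding site. No 2 probes of different members shared more than 30 of their 60 bases in ungapped placements shifted by up to 30 bases. Probes were not set against whole transcripts, so that cross-hybridisation was not checked, neither with transcripts of other members nor with those of other genes.

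None of the transporters passed the test. Of the 53 genes, 43 were well above background on at least 4 arrays and were tested, and 42 of them were so on all 8 arrays, the exception being Slco1b2 with 3 TAC and 4 CTL arrays. The test called 0 of the 43 at an adjusted p under 0.05 (limma), where 57 of 25124 genes were called (0.227%), 47 of them with a higher level on TAC arrays (0.187%) and 10 of them with a lower one (0.0398%). At an unadjusted p under 0.05 (limma), 2 members were higher on TAC arrays, Abcc3 and Abcc4, which is 4.65% of the 43 against 7.04% of all genes. Another 5 were lower, Slc22a30, Slc22a5, Slc22a12, Slc22a18 and Abcc8, which is 11.6% against 8.42%. In either direction 15.5% of all genes were under that p. The lowest adjusted p of a member was 0.109 (limma). The difference was negative for 30 of the 43 members (69.8%) and for 60.5% of all genes. It was positive for 13 members and for 39.5% of all genes, and its median was -0.16 over the members and -0.05 over all genes. Of the 27 proximal tubule markers, 19 had a negative and 8 a positive difference, with a median of -0.07, so that a lean to negative values was not particular to the members. The groups did not overlap for 3 members above CTL and 2 below, where this was so in either direction for 10.1% of all genes. The 95% interval lay within 1 log2 unit of 0 in both directions for 33 members and reached past 1 unit for the other 10.

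**Figure D1:**
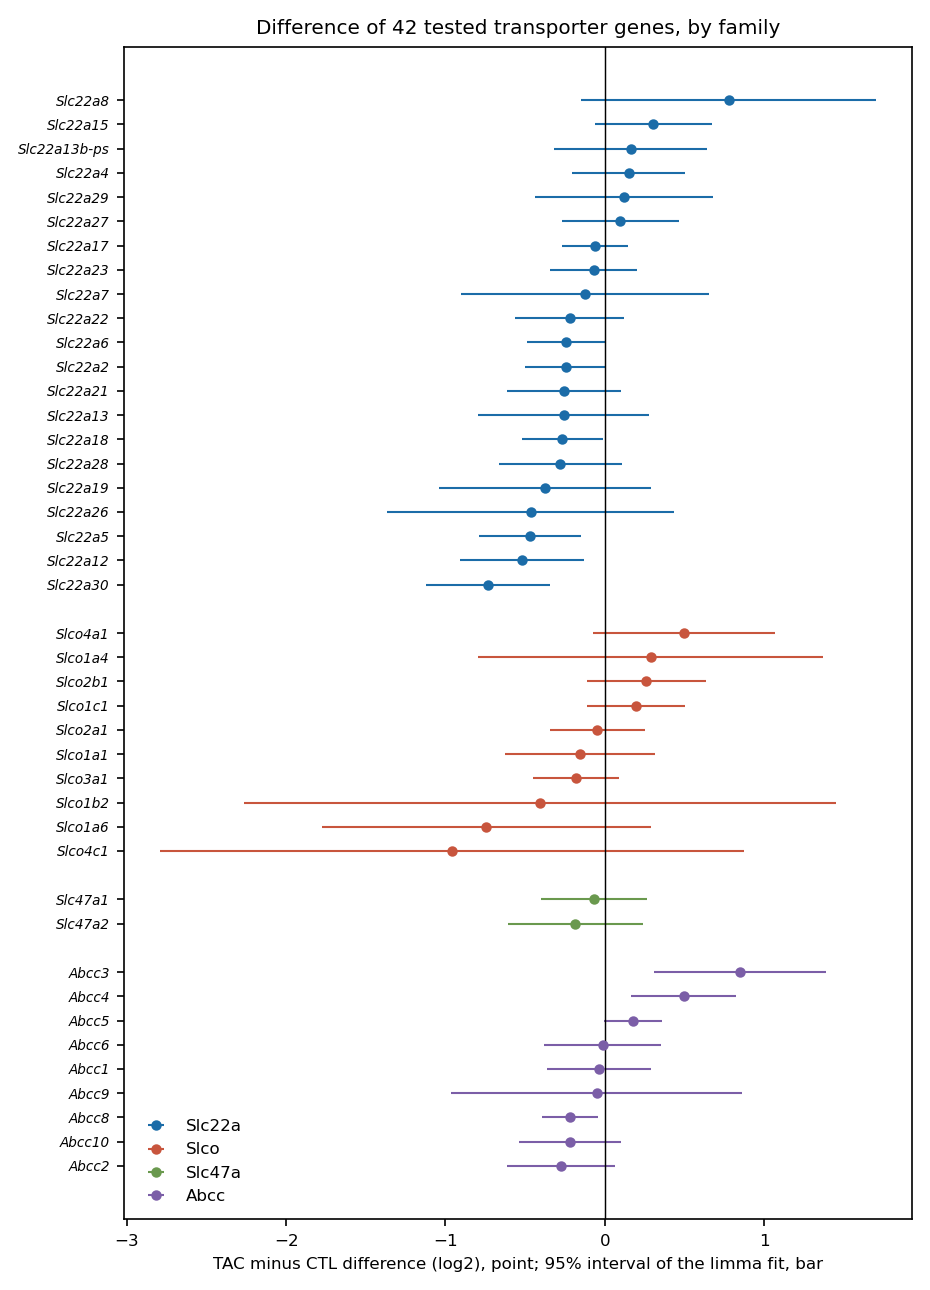
Difference between TAC and CTL arrays (log2, horizontal) of 42 of the 43 tested transporters, sorted within families, with the 95% interval of the limma fit. Most Slc22a points lie left of 0 with intervals that cross it, Abcc3 and Abcc4 lie right of 0, and the widest intervals are those of Slco4c1 and Slco1b2.

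Among the organic anion and urate transporters, Slc22a30 had the lowest p. This gene belongs to the organic anion transporter branch, and its probe lies at 8417813 to 8417872 on the minus strand of chromosome 19 (mm9). Its level was 2.51, 2.37, 2.51 and 2.60 on TAC replicates 1 to 4 and 3.65, 3.01, 3.39 and 2.88 on CTL replicates 1 to 4. All TAC arrays lay below all CTL arrays, which was so for 5.76% of all genes, and the TAC arrays were closer together than the CTL arrays. The difference was -0.73 ± 0.17 (SE), 1.66-fold lower, with a 95% interval of -1.12 to -0.35 (limma, unadjusted p = 0.00223, adjusted p = 0.109, not passed). Slc22a28, whose promoter is nearly the same, differed by -0.28 (95% interval -0.67 to 0.11) and by -0.36 at a further probe. Its level was 4.93, 4.61, 5.21 and 5.39 on TAC arrays and 5.44, 5.35, 5.34 and 5.13 on CTL arrays, and the groups overlapped. Slc22a29 differed by 0.12 (95% interval -0.44 to 0.68). Differences between these genes were not tested. Slc22a26, Slc22a28, Slc22a29 and Slco1b2 are named here after their values were seen.

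Slc22a12 encodes the urate carrier of the apical membrane (URAT1 in humans). Its level was 4.22, 4.65, 4.92 and 4.51 on TAC arrays and 4.88, 5.41, 5.003 and 5.10 on CTL arrays. TAC replicate 3 lay above CTL replicate 1, and the other TAC arrays lay below every CTL array. The difference was -0.52 ± 0.17 (SE; limma, unadjusted p = 0.0146, adjusted p = 0.221). The basolateral uptake carriers Slc22a6 and Slc22a8 had differences of opposite sign, and neither passed. Slc22a6 (Oat1), the carrier of para-aminohippurate, was at 7.65, 7.76, 7.96 and 7.82 on TAC arrays and 7.97, 8.11, 8.21 and 7.88 on CTL arrays, a difference of -0.24 ± 0.11 (SE; limma, unadjusted p = 0.0528). Its groups overlapped only through TAC replicate 3, which lay above CTL replicate 4. Slc22a8 (Oat3) was at 0.12, 1.35, 1.35 and 0.75 on TAC arrays and 0.41, 0.13, -0.91 and 0.83 on CTL arrays. It had the highest difference of the Slc22a family, 0.78, with a 95% interval of -0.15 to 1.70, and its CTL arrays spanned more than its TAC arrays. Slc22a7 (Oat2) differed by -0.12, Slc22a13, a carrier of nicotinate and urate, by -0.26, and Slc22a19 (Oat5) by -0.37, none of them with an interval clear of 0. Of the 12 tested genes of this group, 2 (16.7%, against 8.42% of all genes) were lower at an unadjusted p under 0.05 (limma). None was higher at that p (against 7.04%), and 9 (75%, against 60.5%) had a negative difference.

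The carnitine and zwitterion carriers included the member with the next lowest p among Slc22a. Slc22a5 (Octn2) reabsorbs carnitine in the proximal tubule, and its probe lies at 53678550 to 53678609 on chromosome 11 (mm9). Its level was 2.56, 2.37, 2.64 and 2.74 on TAC arrays and 3.14, 3.03, 3.29 and 2.73 on CTL arrays. CTL replicate 4 lay within the range of the TAC arrays, and the other CTL arrays lay above them. The difference was -0.47 ± 0.14 (SE), 1.38-fold lower (limma, unadjusted p = 0.00936, adjusted p = 0.187, not passed). Slc22a4 (Octn1), the carrier of ergothioneine, differed by 0.15 with a 95% interval of -0.21 to 0.51.

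Among the organic cation transporters, Slc22a2 (Oct2), the basolateral entry of creatinine and metformin, was at 5.54, 5.36, 5.69 and 5.67 on TAC arrays and 5.77, 5.93, 5.93 and 5.64 on CTL arrays. The groups overlapped through CTL replicate 4, and the difference was -0.25 with a 95% interval of -0.50 to 0.01. The probe of Slc22a3 (Oct3) stayed dim throughout. The proton-coupled exporters of cations, Slc47a1 (Mate1) and Slc47a2 (Mate2), differed by -0.07 and -0.19 with intervals of -0.40 to 0.27 and -0.61 to 0.24. Slc47a1 was at 3.71, 3.84, 4.06 and 4.13 on TAC arrays and 3.88, 4.19, 4.19 and 3.74 on CTL arrays, which overlapped nearly throughout.

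Of the other Slc22a genes, Slc22a18, an imprinted carrier gene, was at 7.21, 7.25, 7.56 and 7.33 on TAC arrays and 7.53, 7.66, 7.77 and 7.46 on CTL arrays. TAC replicate 3 lay within the CTL range and the rest below it, a difference of -0.27 ± 0.11 (SE; limma, unadjusted p = 0.0427, adjusted p = 0.308). Slc22a17, a receptor for lipocalin 2, and Slc22a23 differed by -0.06 and -0.07. Over the whole Slc22a family, 4 of 22 tested genes (18.2%, against 8.42% of all genes) were lower, and none was higher (against 7.04% of all genes), at an unadjusted p under 0.05 (limma), with a median difference of -0.24. The mean of the 22 genes relative to CTL was -0.30 to -0.02 on TAC and -0.01 to 0.02 on CTL arrays. All TAC arrays lay below all CTL arrays by a narrow margin, the highest TAC value being -0.024 and the lowest CTL value -0.012. With median scaling these were -0.0237 and -0.0233, and with normexp and the 75th percentile -0.051 and -0.025. The groups overlapped with quantile normalization, with normexp and quantile normalization and in the deposited table. The median difference over all genes was itself -0.05, and -0.11 with median scaling.

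The multidrug resistance-associated proteins held both members with a higher level at an unadjusted p under 0.05. Abcc3 (Mrp3), a basolateral exporter of glucuronides and bile acids, was at -0.38, -1.17, -1.44 and -0.76 on TAC replicates 1 to 4 and -1.59, -2.15, -1.60 and -1.82 on CTL replicates 1 to 4. All TAC arrays lay above all CTL arrays, which was so for 4.35% of all genes, and TAC replicate 1 was the highest. The difference was 0.85 ± 0.24 (SE), 1.80-fold higher, with a 95% interval of 0.31 to 1.39 (limma, unadjusted p = 0.00648, adjusted p = 0.164, not passed). Abcc4 (Mrp4), an apical exporter of cyclic nucleotides, urate and nucleotide drugs, was at 1.05, 1.75, 1.40 and 1.29 on TAC arrays and 0.89, 0.84, 0.83 and 0.95 on CTL arrays. The groups did not overlap, and the CTL arrays lay close together below the lowest TAC array. The difference was 0.49 ± 0.14 (SE), 1.41-fold higher (limma, unadjusted p = 0.00832, adjusted p = 0.180, not passed). The probe of Abcc3 lies at 94204612 to 94204671 on chromosome 11 and that of Abcc4 at 118882104 to 118882163 on chromosome 14 (mm9), both on the minus strand.

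Abcc5 (Mrp5), another exporter of cyclic nucleotides, was at 1.05, 1.06, 1.05 and 0.90 on TAC arrays and 0.77, 0.86, 0.85 and 0.87 on CTL arrays. The groups did not overlap at this probe, with a difference of 0.18 ± 0.08 (SE; limma, unadjusted p = 0.0545), while its 3 further probes differed by 0.06, 0.05 and -0.02. Abcc2 (Mrp2), the apical exporter of conjugates, differed by -0.28 (95% interval -0.62 to 0.07) and Abcc10 by -0.22. Abcc1 (Mrp1) differed by -0.04 and Abcc6, whose loss in humans causes ectopic calcification, by -0.01, with intervals of -0.37 to 0.29 and -0.38 to 0.35. At an unadjusted p under 0.05 (limma), 2 of the 9 tested Abcc genes (22.2%, against 7.04% of all genes) were higher and 1 (11.1%, against 8.42%) lower, with a median difference of -0.04 over the 9. Of the 7 tested multidrug resistance-associated proteins, 3 (42.9%, against 4.35% of all genes) lay entirely above the CTL arrays. None lay entirely below them (against 5.76%). These shares rest on few genes and were not tested, and the 3 include Abcc5, whose further probes differed by at most 0.06.

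The sulfonylurea receptors are not transporters of drugs but regulatory subunits of potassium channels. Abcc8 (Sur1) was at -1.32, -1.18, -1.27 and -1.16 on TAC arrays and -0.98, -1.04, -1.01 and -1.02 on CTL arrays. The groups did not overlap, with a difference of -0.22 ± 0.08 (SE; limma, unadjusted p = 0.0218, adjusted p = 0.251), but a further probe differed by 0.01. Abcc9 (Sur2), known from pericytes and smooth muscle, differed by -0.05 with a wide interval of -0.96 to 0.86.

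**Figure D2:**
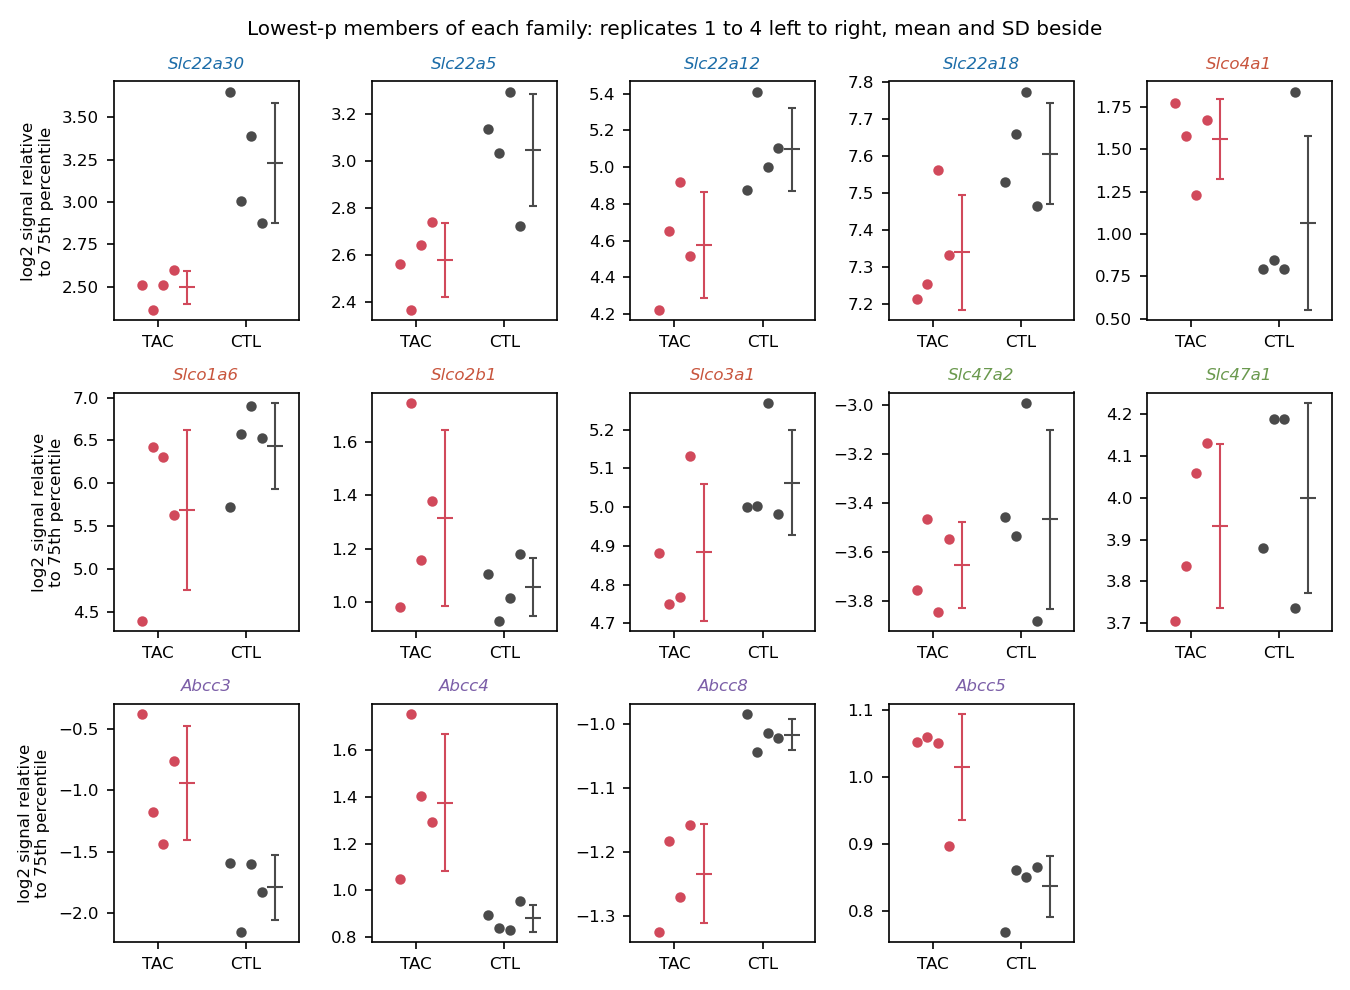
Level (log2 signal relative to the 75th percentile of the array, vertical, with an axis of its own for each gene) of the lowest-p members of each family, with TAC arrays left of CTL arrays, replicates 1 to 4 from left to right, and the mean with SD beside each group. Slc22a30 and Abcc8 lie wholly below CTL and Abcc3, Abcc4 and Abcc5 wholly above, while the others overlap.

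No Slco gene had an unadjusted p under 0.05 (limma), among 10 tested. Slco4a1, a carrier of thyroid hormones in humans, was at 1.77, 1.58, 1.23 and 1.67 on TAC arrays and 0.79, 0.85, 0.79 and 1.84 on CTL arrays. The TAC arrays lay above CTL replicates 1 to 3, and CTL replicate 4 lay above all TAC arrays. The difference was 0.50 with a 95% interval of -0.07 to 1.06. Slco1a6 was at 4.40, 6.42, 6.30 and 5.63 on TAC arrays and 5.73, 6.58, 6.90 and 6.53 on CTL arrays, and its difference of -0.74 (95% interval -1.78 to 0.29) was -0.31 without TAC replicate 1, its lowest array. Slco4c1, the digoxin carrier of the human kidney, was at -1.52, -4.87, -2.66 and -0.91 on TAC arrays and -1.19, -2.45, -1.72 and -0.78 on CTL arrays. Its groups overlapped, and its difference of -0.96 had the widest interval but one, -2.79 to 0.88. The prostaglandin carrier Slco2a1 differed by -0.05, Slco3a1 by -0.18, Slco1a1 by -0.16, Slco1a4 by 0.29 and Slco2b1 by 0.26, the last by 0.30 at a further probe.

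The median SD of the members between arrays of a group was 0.27 on TAC and 0.21 on CTL arrays, against 0.20 and 0.17 over all genes. The SD was over 0.5 for 10 members on TAC and 6 on CTL arrays. TAC replicate 2 was the lowest of the 8 arrays for 16 of the 43 members (37.2%), against 17.4% of all genes, and the highest for 9. It was lowest for Slc22a7, at 5.33 where the other TAC arrays had 6.49 to 6.87, and for Slc22a19, at 4.38 where they had 5.48 to 5.80. Slc22a26 had 0.17 there against 1.36 to 2.20 on the other TAC arrays, and Slco1b2 and Slco4c1 had -5.79 and -4.87. Without TAC replicate 2, the differences of Slc22a7, Slc22a19 and Slc22a26 were 0.21, -0.05 and -0.05, and those of Slco1b2 and Slco4c1 were 0.40 and -0.16. Slc22a30 and Slc22a5, also lowest on TAC replicate 2, differed by -0.69 and -0.40 without it, and Abcc4, highest there, by 0.37.

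**Figure D3:**
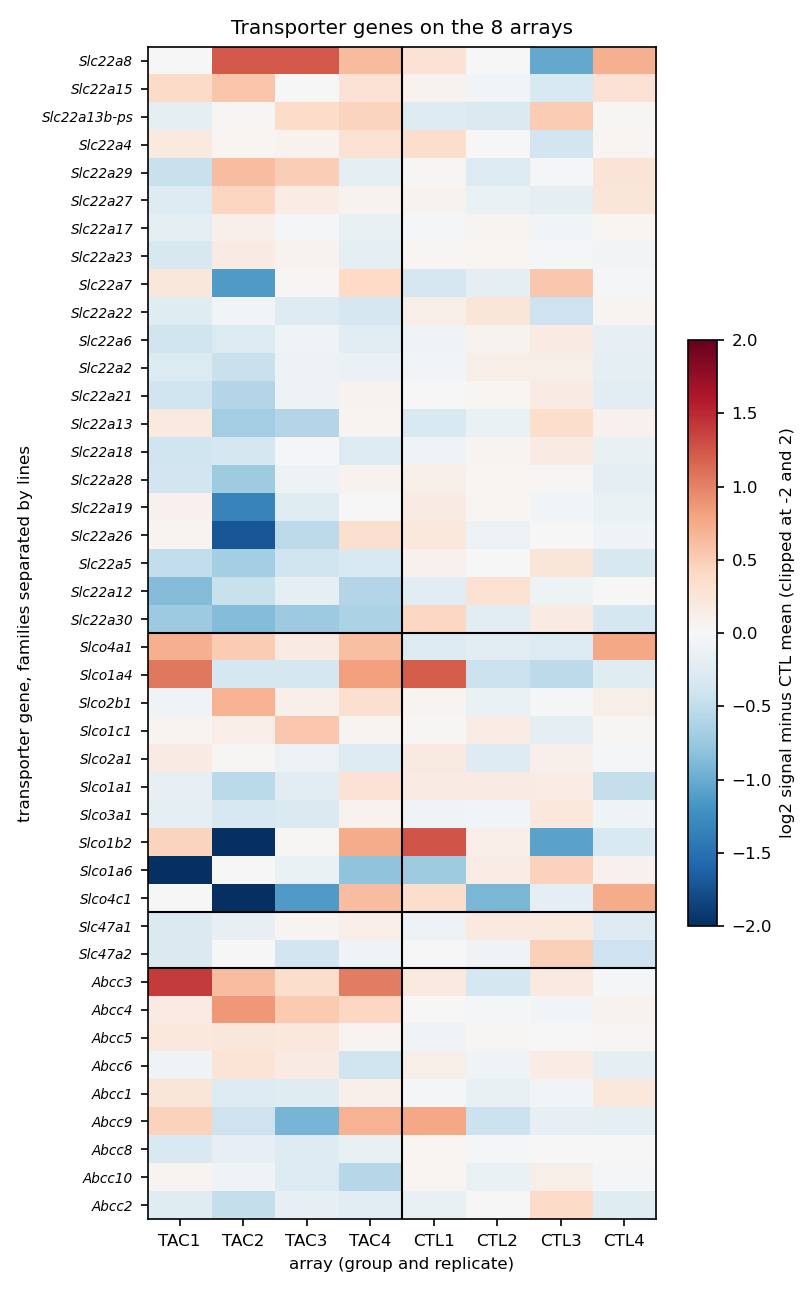
Level minus the CTL mean (log2, colour, clipped at -2 and 2) of 42 of the 43 tested transporters on each array, TAC arrays left of CTL arrays, families separated by lines. TAC replicate 2 has the darkest blue cells, for Slc22a7, Slc22a19, Slc22a26, Slco1b2 and Slco4c1, and TAC replicate 1 for Slco1a6.

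The other 10 members were not tested because their probes were too dim. Of these, 6 were not clearly over background in a single sample: Abcc12, Slc22a3, Slc22a16, Slco6b1, Slco6c1 and Slco6d1. The other 4, Slc22a14, Slc22a20, Slco1a5 and Slco5a1, were well above background on 1 to 3 arrays. Of the 11 members with several probes, Slc22a28, Slco2b1 and Slco3a1 had the same sign at each probe. The signs differed for Abcc5, Abcc6 and Abcc8, whose probes were all well above background on all 8 arrays. They also differed for Slc22a15 and Slco1c1, whose further probes were dim, and for Abcc12, Slco1a5 and Slco5a1, which had only dim probes. The sign of a dim probe cannot be read as a difference.

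Other drug and metabolite carriers of the kidney were listed beside them. Of their 21 tested genes, an unadjusted p under 0.05 (limma) was reached by 3 with a positive and 1 with a negative difference, and none was called. Their mean relative to CTL was 0.08 to 0.11 on TAC and -0.03 to 0.05 on CTL arrays without overlap, while their median difference was -0.04. These groups did not overlap with quantile normalization either but did under the other 4 scalings. Slc17a4, an organic anion and urate carrier, differed by 0.85, the nucleoside carriers Slc28a2 and Slc28a3 by 0.95 and -0.37, and Abcb4, a phospholipid exporter, by 0.56, with adjusted p from 0.207 to 0.283 (limma). Of 16 partners and regulators, such as the scaffold Pdzk1 and the dicarboxylate carriers that supply the exchange partner of organic anions, 1 was called: Hnf4g, a nuclear receptor, fell by 0.62 ± 0.09 (SE; limma, adjusted p = 0.0461). Hnf4g was at -2.75, -2.89, -2.78 and -2.67 on TAC arrays and -2.08, -2.12, -2.28 and -2.14 on CTL arrays, and the groups did not overlap. It was called under 9 of the 21 alternatives and under none that left out a single array, where its adjusted p was 0.0585 to 0.110 (limma). Hnf4a, which is known to bind the motif printed above, differed by -0.15 (limma, adjusted p = 0.568). Ppara, the fatty acid receptor known to control Slc22a5, differed by 0.31 (limma, unadjusted p = 0.0224, adjusted p = 0.252), with Nr1i2 at 0.48 and Ahr at -0.29.

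Markers of other cells differed between the same arrays. Of 10 macrophage markers, 9 were higher at an unadjusted p under 0.05 (limma), and their mean relative to CTL was 0.70 to 1.64 on TAC and -0.38 to 0.36 on CTL arrays. Of 7 tested adipocyte markers, 5 were higher, with a mean of 2.61, 1.85, 1.92 and 4.93 on TAC and -0.43, 1.86, -0.69 and -0.75 on CTL arrays. Lep was too dim to be tested, and Plin1 was well above background on all TAC arrays and on none of the CTL arrays. The 5 tested urothelium markers were high on TAC replicates 1 and 4, at 2.15 and 3.41, where TAC replicates 2 and 3 had -0.82 and -0.33 and the CTL arrays -0.46 to 0.26. Calb1 was the only 1 of 12 distal nephron markers at an unadjusted p under 0.05 (limma), differing by 1.24. None of 5 podocyte, 7 endothelial and 7 pericyte and smooth muscle markers was at an unadjusted p under 0.05 (limma), their median differences being -0.10, -0.05 and 0.22. Of the 27 proximal tubule markers Slc13a1 was higher, by 0.46, and Aqp1 lower, by -0.23, at that p.

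With the adipocyte marker level as a covariate, chosen after seeing the data, Slc22a30 differed by -0.70, Slc22a5 by -0.60, Slc22a12 by -0.62, Abcc3 by 0.87 and Abcc4 by 0.65. In this fit 1 member was higher and 4 were lower at an unadjusted p under 0.05 (limma), and 0 genes were called. The marker level was higher on all TAC arrays than on CTL replicates 1, 3 and 4, so that it cannot be fully told apart from treatment. Without CTL replicate 2 and TAC replicate 4, the arrays highest in these markers within their groups, the differences of the same genes were -0.84, -0.53, -0.40, 0.67 and 0.51, also a choice made after seeing the data. The part of macrophages in these differences was not tested. Several members of these families differ between male and female mouse kidneys. The Y-linked genes Ddx3y, Kdm5d, Eif2s3y and Uty were tested on both groups and differed by -0.39 to -0.01, and Xist was too dim to be tested. The sex-dependent kidney genes Kap, Cyp2j13, Cyp7b1, Odc1 and Prlr differed by -0.23 to 0.05, with none at an unadjusted p under 0.05 (limma).

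**Figure D4:**
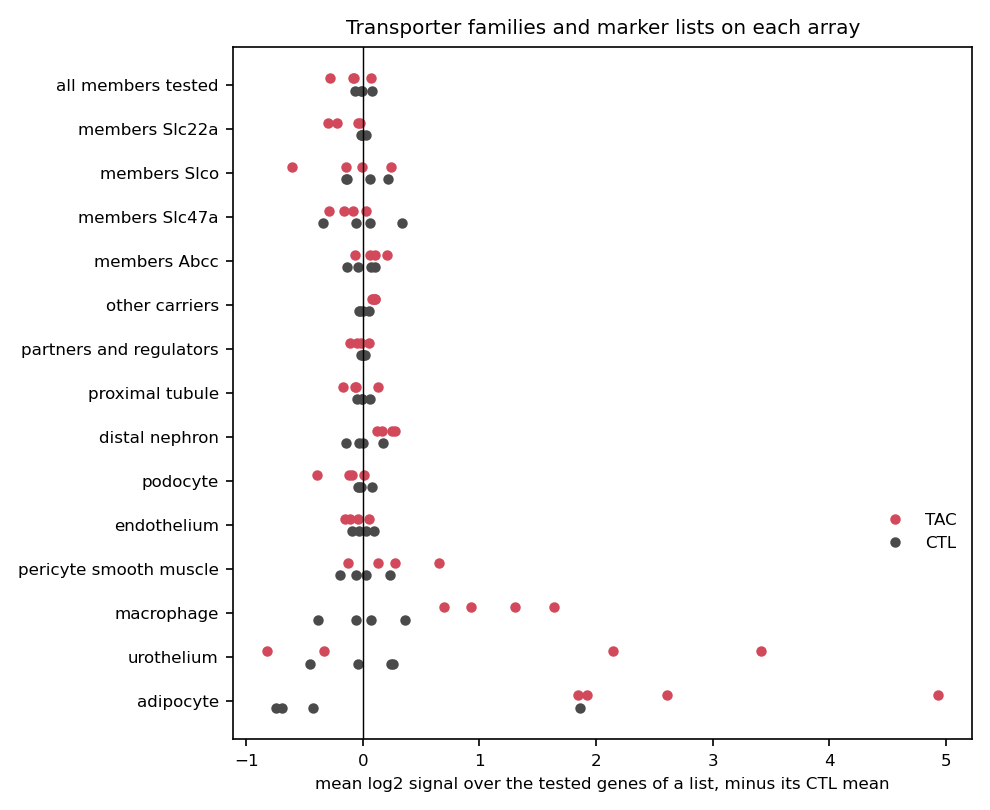
Mean level of each gene list minus its CTL mean (log2, horizontal) on every array, with TAC points above CTL points in each row. The Slc22a points of TAC lie left of CTL by a narrow margin and those of the other carriers right of it, both overlapping under some other scalings, while the groups of Slco, Slc47a, Abcc and the proximal tubule list overlap. All TAC points of the macrophage list lie right of CTL, and those of the adipocyte list lie right of CTL replicates 1, 3 and 4.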

How the data were processed

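The scanner files hold intensity values per spot, per the file headers from Agilent Feature Extraction 10.7.3.1 with the background subtracted in the processed signal. The deposited table holds log2 values, recomputed to within 5e-09 by quantile normalization of the raw median intensities before the log, with column medians of 6.30 to 6.32. Per the submitters' processing notes limma was used, with settings not given in the sources used here. Each array had 0.2 ug of RNA with a RIN of 9, per the labels.

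The values reported are log2 of the processed intensity minus the array's 75th percentile over 59305 non-control spots. Control spots and outlier spots were left out, and spots of a probe were averaged. Probes clearly over background (the scanner software's call) on 4 or more of the 8 arrays were tested, and the brightest such probe stood for its gene. TAC was compared with CTL in limma 3.58.1 under R 4.3.3, two-sided, with p-values adjusted by Benjamini-Hochberg over the 25124 genes and transcripts tested. The fit was tested on simulated data of the same 25124 genes: it found 69% of 100 genes shifted by 1 log2 unit and 92% of 100 shifted by 2, and 5 of its 166 calls were false. Smaller shifts were not simulated, and the members differed by -0.96 to 0.85 with a median SD above that of all genes. These shares therefore do not say how many changed members the test would find. Arrays correlated between 0.982 and 0.993, so that no array's values are a copy of another's. Whether some arrays share an animal cannot be told from this.

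Of the 53 members, 50 matched a RefSeq symbol by accession, and all members kept the file's name. Other genes took the RefSeq symbol where their accession matched, and the file's name otherwise. Probe positions are of mm9, and exon annotation of that build was not used here. The members, the gene lists and the alternatives were chosen with earlier results of these data known. The text names a set of transporters chosen for their known role and, in each family, the 4 with the lowest p, in each other list up to 4 genes with the lowest p, and Hnf4a and the sex-linked genes. Genes under this rule that are not reported here stay in the counts. The same alternatives were run for every count and named member. They changed the scaling, background correction, filter, probe choice, variance model, array weights, block or the arrays included.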

Additional observations from a re-analysis of the deposited data

Results flagged for a closer look

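In 66 groups of 4 arrays (the 33 named and tested members, TAC and CTL), 6 held an array whose gap to the nearest of the others was over Dixon's 95% limit for 4 values, as a share of the group's range, which chance passes in about 1 in 20 groups. Slco4a1 was at 1.84 on CTL replicate 4, against 0.79 to 0.85 on the other CTL arrays. Its difference was 0.75 without that array (limma, unadjusted p = 0.000910, adjusted p = 0.126, within a range of 0.126 to 0.677 over the alternatives). That array was singled out by this gene's own values, so that this p is not a test of the difference. With all arrays the unadjusted p was 0.0799 (limma), and it was under 0.05 in 2 of the 21 alternatives. Abcc5 was at 0.90 on TAC replicate 4, against 1.05 to 1.06 on the other TAC arrays, and at 0.77 on CTL replicate 1, against 0.85 to 0.87. Slco1a1 was at 3.97 on CTL replicate 4, against 4.59 to 4.61 on the other CTL arrays, and differed by -0.31 without it. Slco1a4 was at -2.47 on CTL replicate 1, against -4.20 to -3.92, and differed by 0.69 without it. Slco3a1 was at 5.27 on CTL replicate 3, against 4.98 to 5.003, and differed by -0.11 without it.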

How the results depend on the processing

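No member was called (limma) under any of the 19 planned and 2 added alternatives. The number of genes called, 57, was 286 with normexp and the 75th percentile, 128 with normexp and quantile normalization, 183 with the deposited table, 32 without a filter on dim probes, 151 with a filter on all 8 arrays, 222 with an intensity trend and robust estimation, 309 with array weights and 103 with the replicate number as a block. It was 7 to 56 when 1 array was left out, 8 without CTL replicate 2 and TAC replicate 4 together, and 0 with the adipocyte covariate (limma). The 2 members with a higher level at an unadjusted p under 0.05 became 5 with array weights, 1 with the adipocyte covariate and 2 to 5 with 1 array left out, 5 being without CTL replicate 4. The 5 lower members became 8 with median scaling, 10 with array weights, 3 without CTL replicate 2 and TAC replicate 4 together, and 3 to 8 with 1 array left out, 3 without CTL replicate 1 or TAC replicate 1 and 8 without TAC replicate 3 or TAC replicate 4. Median scaling moved the median of all genes to -0.11. Slc22a30, Slc22a5 and Abcc4 were under an unadjusted p of 0.05 in all 21 alternatives, Abcc3 in 20, Slc22a12 in 19, Abcc8 in 16 and Slc22a18 in 12. Their adjusted p lay between 0.0645 for Slc22a30 with normexp and the 75th percentile and 0.741 for Abcc8 with the mean of its probes. Of 33 named members, 23 kept their direction throughout.

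The other 10 changed sign in some, and the cause was not tested. With quantile normalization the differences were 0.00943 for Abcc6, 0.0205 for Slc22a17 and 0.0115 for Slc47a1. With normexp and quantile normalization they were 0.00512 for Abcc6 and 0.0250 for Slc47a1, and in the deposited table Abcc6 was at 0.0147 and Slc47a1 at 0.0358. With the mean of its probes Abcc6 was at 0.0240, and array weights gave 0.00375 for Abcc1, 0.0371 for Abcc6 and 0.0450 for Slco2a1. With 1 array left out Abcc1 ranged from -0.132 to 0.0372, Abcc6 from -0.111 to 0.116, Abcc9 from -0.30 to 0.24, Slc22a23 from -0.146 to 0.0122, Slc22a7 from -0.30 to 0.21, Slc47a1 from -0.153 to 0.0100 and Slco2a1 from -0.132 to 0.0248. Without CTL replicate 2 and TAC replicate 4 together Abcc6 was at 0.0872 and Slco1a4 at -0.0316. With the adipocyte covariate Abcc10 was at 0.0901, Abcc6 at 0.341, Slc22a23 at 0.0365, Slco1a4 at -0.0483 and Slco2a1 at 0.25.

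The replicate numbers were checked for pairing: deviations of same-numbered TAC and CTL arrays correlated by 0.02 to 0.16, with 2 of 4 over 0.1, and those of other combinations by -0.15 to 0.06. The main fit did not treat the numbers as pairs, and these values do not settle whether same-numbered arrays belong together. With 3 of 4 TAC and 4 of 4 CTL arrays correlating best with their own number, the block called 103 genes and 0 members (limma), and an unadjusted p under 0.05 was reached by 2 members with a higher and 6 with a lower level. The slide and scan could not be tested as a block because all arrays shared 1 slide and 1 scan. Signal over background limits the 10 dim members, for which no difference can be stated.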
